A study of Mus musculus with 9 samples.

Results

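The retinal transcripts of mice given 10 μg of anti-C5 antibody per eye were compared with those of mice given 1 μg. The comparison takes 6 of the 9 arrays of the series, 3 at each dose, and every one of the 41345 probe sets. The other 3 arrays hold control retinas. They enter no difference and serve only to estimate the spread between pools. All mice were 6-week-old C57BL/6 males, and the retinas were taken 7 days after an intravitreal injection of 1 μL. Each array holds the RNA of 4 retinas, pooled from 4 mice. The antibody is a chimeric molecule, chicken variable regions on a mouse IgG1 constant part, that binds the MG4 domain of the β chain of mouse C5. For the control injection, GEO's labels give PBS, whereas the methods of the study name an IgG1 isotype antibody, so it is not settled here. The labels call 1 μg the therapeutic dose and 10 μg a toxic one, and the comparison asks how the retina differs between these doses. No retina of this experiment had a laser lesion.

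C5 is the complement protein whose cleavage releases C5a, a peptide that attracts and activates myeloid cells through the receptor C5ar1, and C5b, which starts the membrane attack complex. In the healthy eye, complement is held at a low level of activity by regulators on the cell surface. The retina is built mainly of rods, with cones, bipolar, amacrine, horizontal and ganglion cells, Müller glia and a small population of microglia. It also expresses microRNAs, short RNAs that lower the stability and translation of messenger RNAs paired with their seed (bases 2 to 8). An array of this kind reads the longer precursor transcript rather than the mature microRNA. In bulk RNA, fewer cells of a type and less RNA per cell cannot be told apart.

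Between 10 μg and 1 μg, 0 of 41345 probe sets passed an adjusted p of 0.05 (limma), and the lowest adjusted p was 0.182. At an unadjusted p below 0.05 there were 4480 probe sets (10.8%), where 2067.25 fall below that level by chance. Of these, 1546 (3.74% of all) were higher and 2934 (7.1%) lower at 10 μg. Most single genes differed by less than 2-fold between 10 μg and 1 μg. With the brightest probe set of its own for each of 22184 genes, the 95% confidence interval of the difference stayed within 2-fold for 21685 genes (97.8%). Over all 41345 probe sets that share was 90.8%, and the median standard error was 0.118 on the log2 scale. An interval within 2-fold leaves room for smaller differences. A difference over 2-fold with an unadjusted p below 0.05, the thresholds that the study used against control, was met by 162 probe sets (0.392%), 31 higher (0.075%) and 131 lower (0.317%). All 131 of these that were lower and 27 of the 31 that were higher name no gene here. Of the other 4, 1 names several genes and 3 name a single gene, all higher at 10 μg: the vomeronasal receptor Vmn1r14, the multicopy gene Btbd35f1 and the olfactory receptor Olfr1084. With 3 pools against 3, an exact test on a single gene cannot go below a p of 0.1, so the model across all probe sets was used.

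The arrays were alike in distribution. Their values run from 1.35 to 13.74, the array medians from 5.88 (10 μg replicate 3) to 6.04 (1 μg replicate 1), and the 6 arrays correlated across probe sets with an r of 0.977 to 0.989. Gnat1, the rod transducin subunit, stood between 13.45 and 13.55 on each of the 6 arrays, near the top of the range. Per gene, 1819 of 22184 (8.2%) had an unadjusted p below 0.05, 662 (2.98%) higher and 1157 (5.22%) lower. The excess of lower genes changed with the arrays in the fit and with the scaling. The counts were 712 higher and 627 lower without 1 μg replicate 1, and 787 and 930 without 10 μg replicate 3. With weighted arrays they were 704 and 879. With each array centred on its median, 1021 were higher and 610 lower, and with cyclic loess 935 and 718. The control arrays are given below only to show where the doses lie.

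Precursors of microRNAs were lower at 10 μg more often than genes in general, by unadjusted p only. Of 483 measured precursors, 69 (14.3%) were lower and 10 higher at an unadjusted p below 0.05, against 5.22% and 2.98% of all genes. Their median difference was -0.08, against -0.01 over all genes. It was -0.02 without 1 μg replicate 1, -0.13 without 1 μg replicate 3 and -0.04 with each array centred on its median. None passed the adjusted test. The counts were 43 lower and 21 higher without 1 μg replicate 1. Leaving out 1 μg replicate 3 or 10 μg replicate 3 gave 17 and 16 higher. With the unequal-variance test, 22 precursors were lower and 3 higher, and of all 22184 genes 702 were lower and 272 higher. RefSeq (GRCm38.p6) gave a mature sequence for 420 of the precursors. The following are those of the precursors that the values below turn on, with the seed in capitals, so that shared and distinct seeds can be seen.
miR-1192: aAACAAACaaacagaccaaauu
miR-128-3p: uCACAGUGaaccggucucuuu
miR-677-5p: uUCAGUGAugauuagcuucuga
miR-181a-5p: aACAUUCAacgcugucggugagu
miR-182-5p: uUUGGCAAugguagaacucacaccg
miR-493-3p: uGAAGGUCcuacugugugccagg
miR-370-3p: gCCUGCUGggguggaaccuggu
miR-494-3p: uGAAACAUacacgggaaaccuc
miR-377-3p: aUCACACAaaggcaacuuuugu
No seed is shared among these 9. In that build, miR-1192 lies at chr19:23149450-23149471, miR-128-3p at chr1:128202404-128202424 and miR-677-5p at chr10:128085291-128085312, all on the plus strand.

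The precursor Mir1192 had log2 values of 6.26, 6.29 and 6.40 at 1 μg and of 5.55, 5.41 and 5.37 at 10 μg. The groups did not overlap, and the control pools (5.86, 6.17 and 5.76) lay between them. The difference was -0.87 (standard error 0.113, 95% confidence interval -1.13 to -0.61, adjusted p = 0.182 from limma), which is 1.83-fold. Mir128-1 encodes miR-128, an abundant neuronal microRNA. Its values were 5.57, 5.36 and 5.53 at 1 μg and 4.89, 4.71 and 4.56 at 10 μg. All 10 μg pools were lower than the 1 μg and control pools, and the control values of 5.45, 5.60 and 5.43 overlapped those at 1 μg. The difference was -0.76 (standard error 0.104, adjusted p = 0.182 from limma). R3hdm1, the gene in whose intron Mir128-1 lies, differed by -0.11 (95% confidence interval -0.25 to 0.03). For Mir677 the values were 6.96, 6.91 and 7.00 at 1 μg against 6.31, 6.15 and 6.42 at 10 μg, with control at 6.80, 6.98 and 7.01. Again only the 10 μg pools stood apart, by -0.67 (standard error 0.091, adjusted p = 0.182 from limma). Leaving out any 1 array kept these 3 differences between -0.93 and -0.60.

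**Figure D1:**
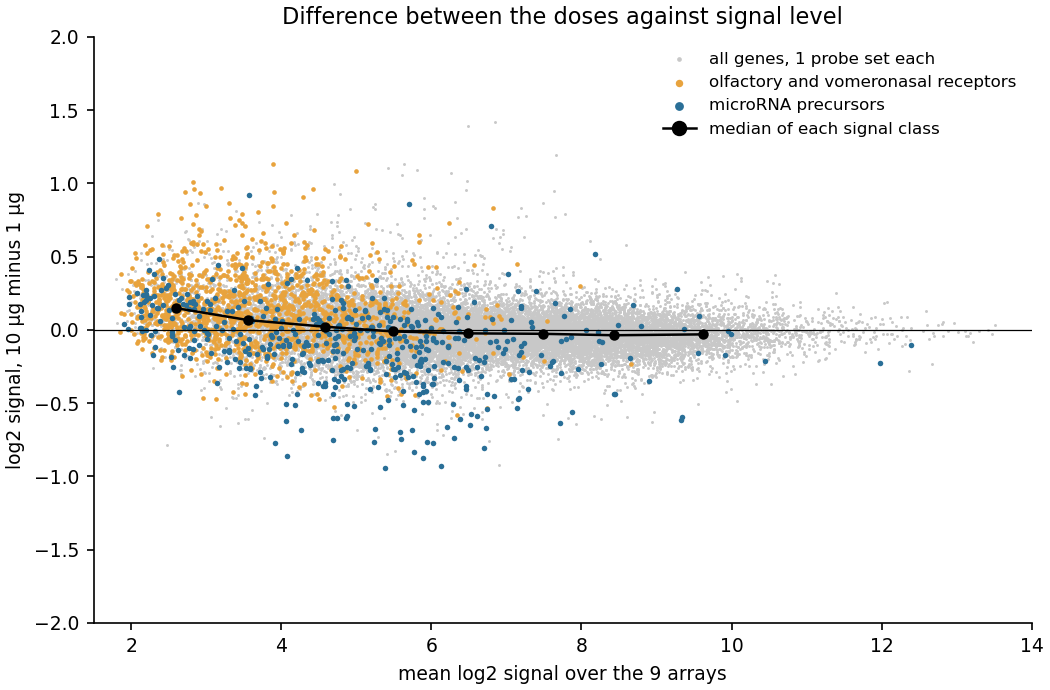
Each point is a gene, plotted by its mean log2 signal over the 9 arrays (x) and by its log2 signal at 10 μg minus that at 1 μg (y); blue points are microRNA precursors, orange points olfactory and vomeronasal receptors, and the black line joins the medians of 8 signal classes. The receptors lie at the dim end, where the class medians are above 0 (0.148 below a log2 signal of 3), and many precursors reach below -0.5 at signals of 4 to 7.

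Among 27 measured precursors of microRNAs known from retina or neurons, 20 lay lower at 10 μg. Of these, 8 (29.6% of the 27) had an unadjusted p below 0.05, against 5.22% of all genes and 14.3% of all precursors, with none higher. The median was -0.19. Only 5 were below that level without 1 μg replicate 3, and 4 with the unequal-variance test. The list holds the miR-183 cluster of photoreceptors and other sensory cells, the miR-181 family and the miR-204 and miR-211 pair. Mir182 stood at 6.63, 6.44 and 6.82 at 1 μg and at 5.95, 6.11 and 6.00 at 10 μg, a difference of -0.61 (standard error 0.143, adjusted p = 0.342 from limma). The doses did not overlap, and the control values (6.25, 6.76 and 6.49) reached down towards those at 10 μg. Mir183, of the same cluster, differed by -0.37, with overlapping pools.

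The 6 measured precursors of the miR-181 family share the seed ACAUUCA. They ranged from -0.70 to 0.19, 5 were lower and 3 had an unadjusted p below 0.05. At that level 5.22% of all genes and 14.3% of all precursors were lower. Mir181a-1 stood at 5.81, 5.70 and 5.43 at 1 μg, at 4.91, 4.58 and 5.36 at 10 μg and at 6.04, 6.27 and 6.14 in control. Every 10 μg pool was below every 1 μg pool, with 10 μg replicate 3 next to the lowest of them, and every 1 μg pool was below control. The difference was -0.70 (standard error 0.191, adjusted p = 0.345 from limma). Mir181b-1, brighter and from the same locus, gave -0.62, and Mir181b-2 gave -0.25, both without overlap. Mir204 and Mir211 share the seed UCCCUUU and had differences of -0.74 and -0.42, with pools that overlapped. The 6 Mir344 precursors with the seed GUCAGGC were all lower, 4 of them at an unadjusted p below 0.05. Among 12 precursors with the let-7 seed GAGGUAG, 8 were lower and 1 had an unadjusted p below 0.05.

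In the other direction, Mir290a, known from embryonic stem cells, was the precursor with the lowest p among those higher at 10 μg. It stood at 2.87, 3.45 and 3.07 at 1 μg and at 4.11, 3.84 and 4.20 at 10 μg. The doses did not overlap, while control pools (3.82, 3.50 and 3.26) reached from the 1 μg range to the edge of the 10 μg range. The difference was 0.92 (standard error 0.188, adjusted p = 0.295 from limma).

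The imprinted Dlk1-Dio3 locus of chromosome 12 holds a large cluster of microRNAs, expressed from the maternal chromosome in neurons and processed from the same long transcripts as the non-coding RNAs Meg3 and Rian. Of its 53 listed precursors 41 were measured, and 35 lay lower at 10 μg. At an unadjusted p below 0.05, 17 (41.5% of the 41) were lower, against 5.22% of all genes and 14.3% of all precursors. None was higher at that level with all 9 arrays in the fit. The groups of pools did not overlap for 12 of the lower ones and for 1 higher one, against 9.72% and 4.31% of all genes. The median difference was -0.33. With the unequal-variance test, 5 precursors were lower at that level. Without 1 μg replicate 1, 9 precursors were lower and 1 higher at that level and the median was -0.19. Without 10 μg replicate 1, 11 were lower and 1 higher, and 1 was higher without control replicate 1 or 1 μg replicate 2. Relative to the mean of the 6 dose arrays, the median of the 41 precursors was 0.33, 0.02 and 0.07 on the 1 μg arrays and -0.15, -0.18 and -0.09 on the 10 μg arrays. It was 0.24, 0.31 and 0.35 on the control arrays, so that 1 μg replicates 2 and 3 lay between control and 10 μg and 1 μg replicate 1 lay with control. That array was also the one with the highest overall median, and the part of this in the result was not tested.

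Mir493 stood at 6.37, 6.03 and 5.94 at 1 μg and at 5.11, 5.56 and 5.38 at 10 μg, against 6.41, 6.21 and 6.49 in control. No 10 μg pool reached the 1 μg range, and the difference was -0.76 (standard error 0.152, adjusted p = 0.295 from limma). Mir377 stood at 6.67, 6.16 and 6.29 against 5.68, 5.67 and 5.76, again with no overlap and a difference of -0.67. Mir370 (4.77, 4.01 and 4.12 against 3.23, 3.69 and 3.40) and Mir494 (5.72, 5.66 and 5.54 against 5.26, 4.46 and 4.36) had differences of -0.86 and -0.94. In both, 1 array stood apart within a dose, 1 μg replicate 1 for Mir370 and 10 μg replicate 1 for Mir494. At the other end, Mir329 and Mir376c lay above 0, at 0.27 and 0.24, with intervals that include 0. The long transcript Rian was at 8.98, 8.72 and 8.72 at 1 μg and at 8.42, 8.37 and 8.50 at 10 μg, with control at 8.76, 8.78 and 8.88. Its difference was -0.37 (standard error 0.088, adjusted p = 0.342 from limma), without overlap. Meg3 differed by -0.20, and its pools overlapped. Rian and Meg3 were added to the lists after their values had been seen.

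**Figure D2:**
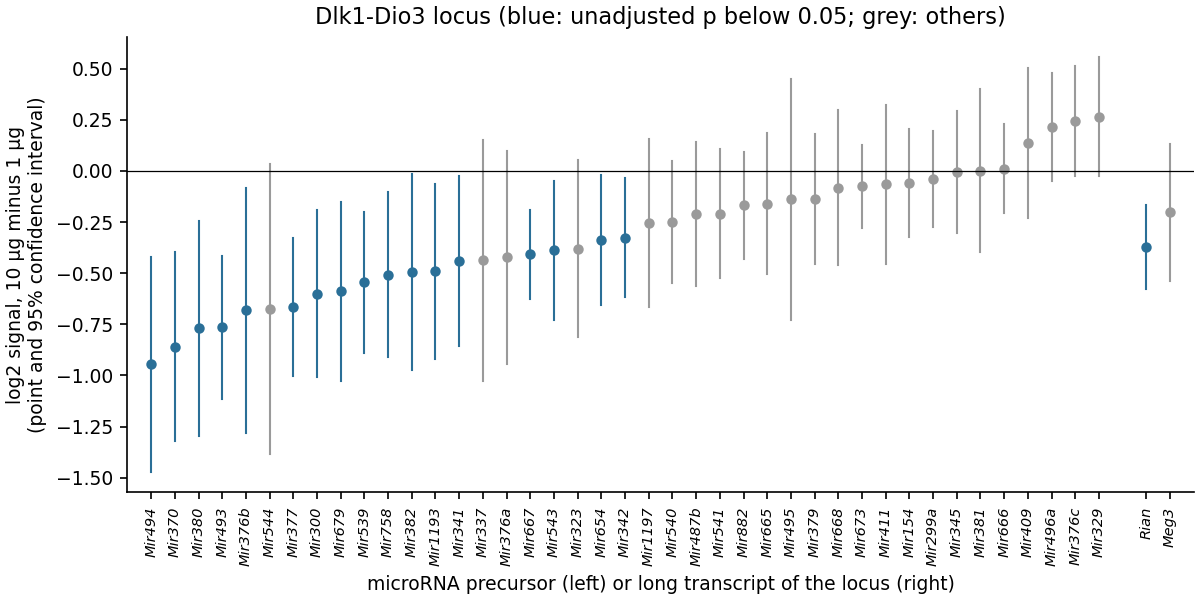
The plot shows the difference in log2 signal, 10 μg minus 1 μg (y), with its 95% confidence interval, for each of 41 microRNA precursors of the Dlk1-Dio3 locus and for the long transcripts Rian and Meg3; blue marks an unadjusted p below 0.05. From Mir494 at -0.94 to Mir329 at 0.27, 35 precursors lie below 0, and 0 intervals lie wholly above it.

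Longer transcripts that were lower at 10 μg included Syne1, the gene of nesprin-1, a giant protein that ties the nuclear envelope to the cytoskeleton. The array carries 59 distinct probe sets of this gene, and all 59 were lower at 10 μg, from -0.61 to -0.11 with a median of -0.32. Of these, 42 had an unadjusted p below 0.05 and 45 separated the doses without overlap, against 7.1% and 9.84% of all probe sets in that direction. Without 1 μg replicate 1, or without 10 μg replicate 3, 29 had an unadjusted p below 0.05, and with the unequal-variance test 20 did. The probe sets share the pools and the transcript, so they are not independent replicates. The brightest read 10.64, 10.28 and 10.29 at 1 μg, 10.11, 10.10 and 9.90 at 10 μg and 10.51, 10.49 and 10.64 in control. All 10 μg pools lay below the others, by -0.37 from 1 μg (standard error 0.113, adjusted p = 0.378 from limma). Another had the lowest p of the gene, at -0.52 (standard error 0.089, adjusted p = 0.235 from limma). Of the 10 other measured genes of nesprins, SUN proteins and lamins, 0 had an unadjusted p below 0.05.

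**Figure D3:**
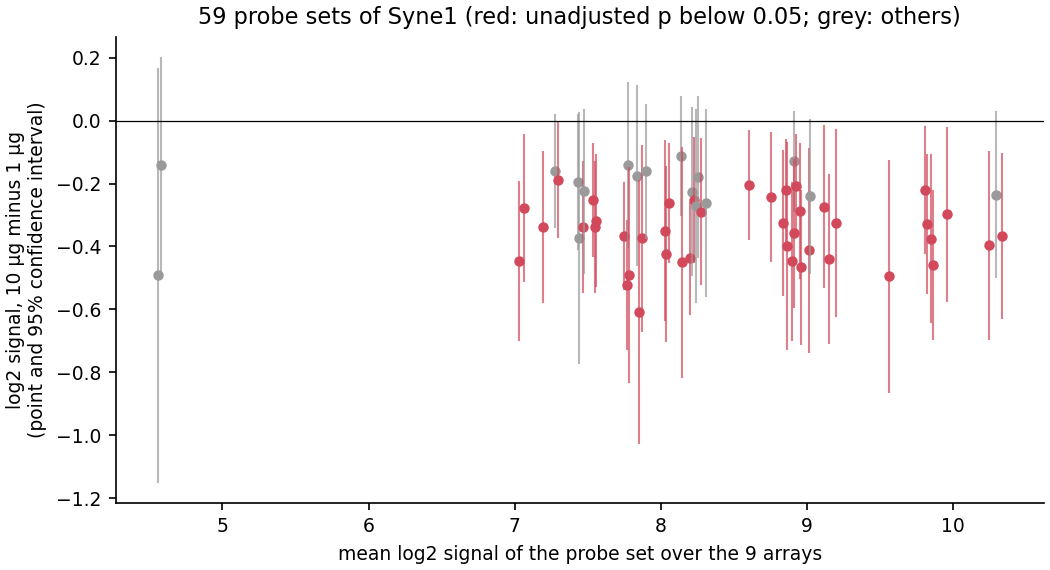
Each point is a probe set of Syne1, plotted by its mean log2 signal over the 9 arrays (x) and by the difference between 10 μg and 1 μg in log2 signal (y), with its 95% confidence interval. All 59 points lie below 0, over signals from below 5 to above 10, and the 42 red ones have an unadjusted p below 0.05.

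Spcs3, a subunit of the signal peptidase that trims secreted and membrane proteins in the endoplasmic reticulum, stood at 7.80, 7.68 and 7.76 at 1 μg and at 7.20, 7.21 and 7.29 at 10 μg. Control pools (7.60, 7.71 and 7.59) lay with those at 1 μg or just below them. The difference was -0.51 (standard error 0.066, adjusted p = 0.182 from limma). Spata4, named for its expression in testis, had 6.47, 6.35 and 6.33 at 1 μg against 5.89, 5.63 and 5.58 at 10 μg, a difference of -0.69 (standard error 0.092, adjusted p = 0.182 from limma). Neither gene had overlapping doses. The transcript 1700071K01Rik was ordered by dose: 8.55, 8.73 and 8.72 in control, 8.11, 7.81 and 7.71 at 1 μg and 7.14, 7.27 and 7.28 at 10 μg. No group overlapped with another. Between the doses it differed by -0.64 (standard error 0.113, adjusted p = 0.235 from limma).

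The subunits of glutamate, GABA and glycine receptors, through which retinal neurons signal, leaned lower for a few glutamate receptors. Of 43 measured, 5 had an unadjusted p below 0.05, all lower (11.6%, against 5.22% of all genes), and the doses did not overlap for 8 (18.6%, against 9.72%), all lower. The median over the list was -0.04 and turned to 0.00 with each array centred on its median. Gria2, an AMPA receptor subunit, was at 10.28, 9.86 and 9.96 at 1 μg and at 9.71, 9.61 and 9.51 at 10 μg, a difference of -0.43 (standard error 0.118, adjusted p = 0.348 from limma). Grm7, a presynaptic metabotropic receptor, gave 7.51, 7.40 and 7.51 against 7.12, 7.07 and 7.01, a difference of -0.41 (standard error 0.095, adjusted p = 0.342 from limma). Every 10 μg pool was below the 1 μg pools in both. A second probe set of Grm7 gave -0.13, with overlapping pools. The other 3 were the kainate receptor subunits Grik2 (-0.32) and Grik1 (-0.17) and the AMPA receptor subunit Gria4 (-0.21).

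**Figure D4:**
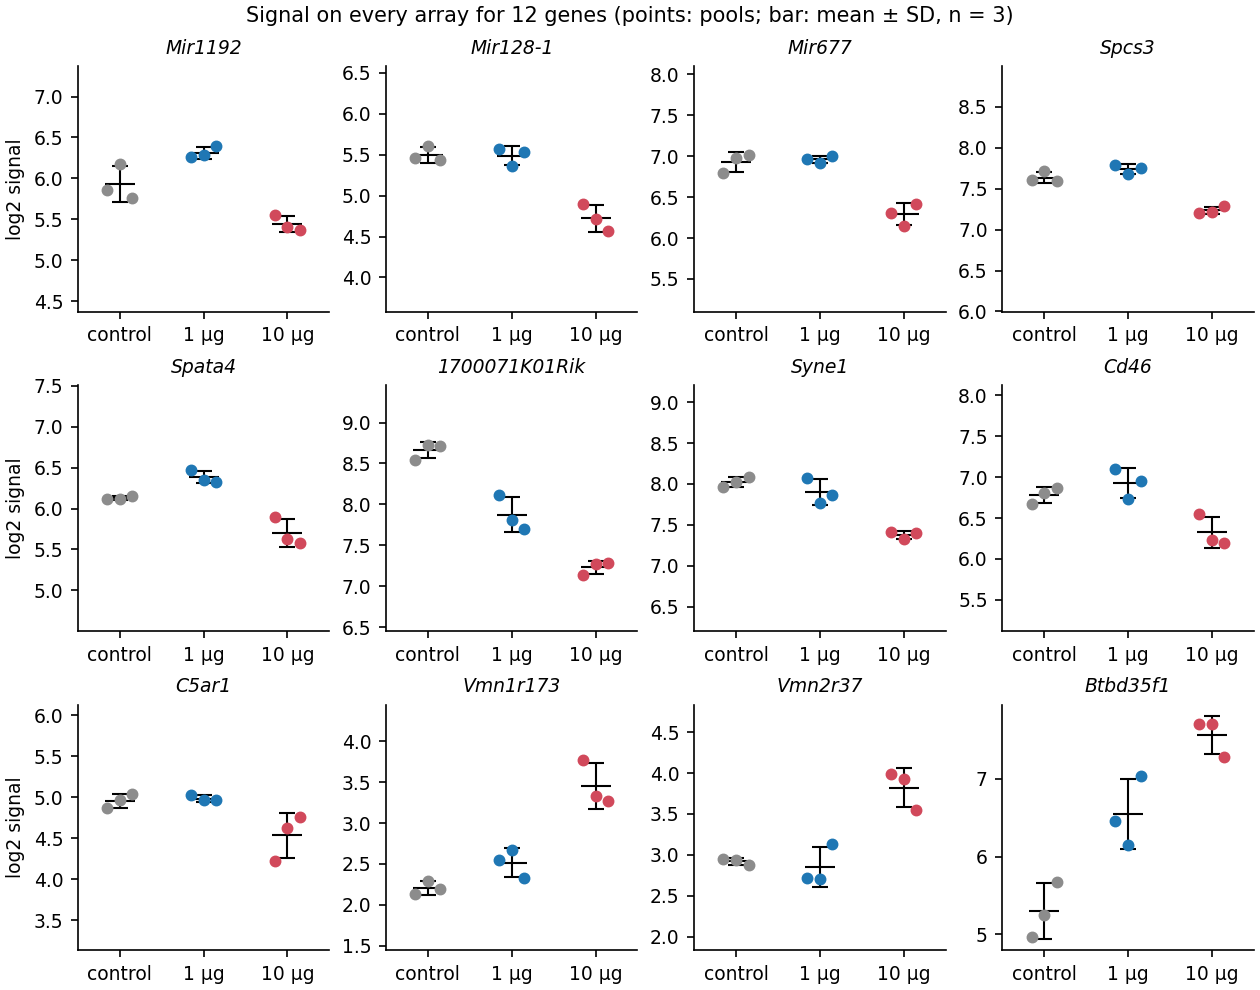
Log2 signal (y) of 12 genes in the control, 1 μg and 10 μg pools; each point is an array, and the bar and whiskers are the mean and SD of 3 pools. In the 9 genes from Mir1192 to C5ar1 the 10 μg pools lie below the 1 μg pools, and in Vmn1r173, Vmn2r37 and Btbd35f1 they lie above; for Syne1 the probe set with the lowest p is drawn.

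Among the genes of the complement system, the receptor of the C5a peptide and a membrane regulator were lower at 10 μg by an unadjusted p only. C5ar1 stood at 5.03, 4.96 and 4.96 at 1 μg and at 4.22, 4.63 and 4.75 at 10 μg, with control at 4.86, 4.96 and 5.04. All 10 μg pools were below all others, and the difference was -0.45 (standard error 0.131, adjusted p = 0.362 from limma). Control replicate 2 and 1 μg replicates 2 and 3 read the same 4.96. With the unequal-variance test, C5ar1 did not reach an unadjusted p below 0.05. Hc, which encodes C5, differed by -0.16 (95% confidence interval -0.40 to 0.08), and its 10 μg replicates 2 and 3 read the same 4.47 as 1 μg replicates 2 and 3. C5ar2, the second receptor of C5a, differed by -0.05. These levels are below the array medians. Cd46, a membrane cofactor for the breakdown of C3b and C4b, was brighter, at 7.10, 6.74 and 6.95 against 6.55, 6.23 and 6.19. Both doses stood apart, and the difference was -0.61 (standard error 0.126, adjusted p = 0.300 from limma). Control pools, at 6.68, 6.81 and 6.87, lay with the 1 μg pools. The related regulator Cr1l gave -0.20, and C4bp, the C4b-binding protein, gave 0.24.

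Counted by list, 1 of 9 genes of C5, its receptors and the terminal pathway was lower at an unadjusted p below 0.05 (C5ar1, 11.1%). So was 1 of 19 of complement initiation and amplification (Colec11, -0.39), which is 5.26%. Of 14 regulators, 2 (14.3%) were lower and 1 (7.14%) was higher. Among all genes, 5.22% were lower and 2.98% higher at that level. The count of lower genes of initiation and amplification was 0 in each fit without 1 control or 1 μg array, and 2 without 10 μg replicate 1 or 2. There was 1 higher gene without 1 μg replicate 2 or 10 μg replicate 3. Cfb, of the alternative pathway, differed by 0.10. Among 12 receptors for antibody Fc, Fcamr was at 0.31 and Fcgr1, the high-affinity IgG receptor, at -0.23. Fcgr3, Fcgr2b and Fcgrt, which are receptors of mouse IgG1, were at 0.12, 0.08 and 0.13, with intervals that include 0. Of 28 cytokines, chemokines and adhesion molecules 0 had an unadjusted p below 0.05. Ccl2, which encodes MCP-1, was at -0.07 and Icam1 at -0.07. Vegfa, the main growth factor for vessels, was at 8.81, 8.72 and 8.79 against 8.69, 8.51 and 8.76, a difference of -0.12 (95% confidence interval -0.30 to 0.06).

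Interferon-induced genes lay slightly higher at 10 μg. Of 21 measured, 14 were above 0 and 5 had an unadjusted p below 0.05, all higher (23.8%, against 2.98% of all genes), with a median of 0.13 that was 0.05 without 10 μg replicate 2. B2m, the light chain of class I antigen-presenting molecules, was at 10.49, 10.53 and 10.62 at 1 μg and at 10.71, 11.03 and 10.83 at 10 μg. The doses did not overlap, control pools stood at 10.63, 10.46 and 10.42, and the difference was 0.31 (standard error 0.101, adjusted p = 0.384 from limma). The others were Usp18 (0.51), Isg15 (0.29), Irf9 (0.24) and Ifitm3 (0.40). The highest value of Irf9 and Usp18 was in 10 μg replicate 2. The count of higher genes was 3 without control replicate 2 or 1 μg replicate 1, 2 without 1 μg replicate 2, and 1 without 1 μg replicate 3, 10 μg replicate 2 or 10 μg replicate 3. There was 1 lower gene without control replicate 3, 1 μg replicate 2 or 10 μg replicate 1. Usp18 in control, at 6.64, 6.44 and 6.37, overlapped its range at 10 μg (6.20, 6.66 and 6.62).

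Of 22 markers of microglia and macrophages, 16 were above 0, with a median of 0.10 that became 0.00441 without 10 μg replicate 2, 0.03 without 1 μg replicate 2 and 0.15 without 10 μg replicate 3. Cd14, a co-receptor for bacterial lipopolysaccharide, differed by 0.24 and Laptm5, a lysosomal membrane protein of leukocytes, by 0.19, both without overlap. They were the 2 of the list with an unadjusted p below 0.05 (9.09%, against 2.98% of all genes higher at that level). The count of higher genes was 0 without 10 μg replicate 1 or 2, 4 without 10 μg replicate 3, and 1 without control replicate 3 or any 1 array of the 1 μg group; without 10 μg replicate 2, 1 gene was lower. The intervals of the defining markers include 0: Adgre1, which encodes F4/80, was at 0.09, Csf1r at 0.13 and Aif1 at -0.08. Casp8, the initiator caspase of death receptors, was at 5.49, 5.53 and 5.46 at 1 μg and at 5.64, 5.87 and 5.93 at 10 μg. All 10 μg pools were higher, with a difference of 0.32 (standard error 0.098, adjusted p = 0.378 from limma). Casp8 alone of 26 apoptosis genes had an unadjusted p below 0.05 (3.85%, near the 2.98% of all genes higher at that level). In the list of reactive gliosis, Junb was at 0.28 and Gfap, the intermediate filament that rises in stressed Müller glia, at -0.04 with an interval from -0.61 to 0.54. Its sign turned with each array centred on its median (0.0079). Gfap varied within doses, at 7.40, 6.80 and 7.25 against 7.24, 7.53 and 6.57.

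The neurons and glia of the retina differed little. Over 22 rod genes the median was -0.03 (0.02 with each array centred on its median). At an unadjusted p below 0.05, 1 (4.55%) was lower, against 5.22% of all genes: Rgs9, which shuts off transducin, at -0.15. That count was 0 in each fit without 1 array, except that without 10 μg replicate 1. Of 13 cone genes, Arr3, the cone arrestin, stood at 10.19, 9.90 and 10.03 against 9.75, 9.65 and 9.87, a difference of -0.28 (standard error 0.097, adjusted p = 0.399 from limma) with no overlap. Opn1sw, the short-wave cone opsin, was at 0.08 in the same pools, and the cone list had a median of -0.05, which was -0.03 without 10 μg replicate 1 and -0.09 without 10 μg replicate 3. Kcne2, a potassium channel subunit on the same list, was at -0.27. Arr3 and Kcne2 were the 2 cone genes with an unadjusted p below 0.05 (15.4%, against 5.22% of all genes lower at that level). This count was 1 without 1 μg replicate 1 or 10 μg replicate 2. Of 12 bipolar genes, 9 were below 0, and the doses did not overlap for 5, all lower, against 9.72% of all genes in that direction. The median of this list was -0.07, and -0.03 with each array centred on its median. Trpm1, the transduction channel of ON bipolar cells, was at -0.23 and its upstream receptor Grm6 at -0.20, neither with overlapping doses. Only Trpm1 had an unadjusted p below 0.05 (8.33%, against 5.22% of all genes lower at that level). No bipolar gene did without 1 μg replicate 1 or 10 μg replicate 1. Among 16 amacrine and horizontal, 15 ganglion and 14 Müller genes, 0 had an unadjusted p below 0.05, and the medians were -0.04, 0.03 and 0.02. Pou4f1 and Sncg, of ganglion cells, were at 0.02 and 0.07, and Rlbp1, of Müller glia, at 0.15.

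**Figure D5:**
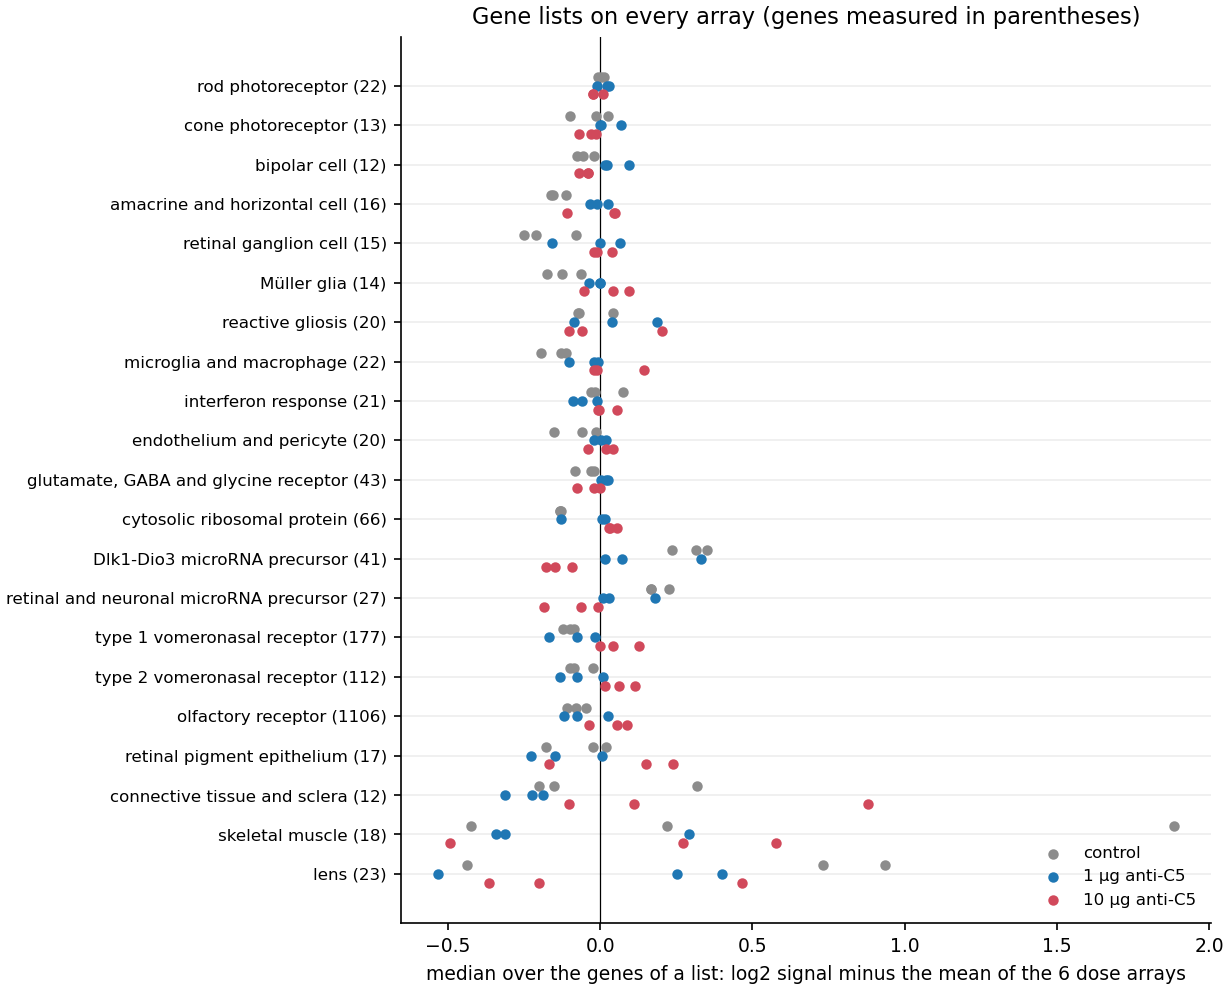
Each point is an array: the median over the genes of a list (number in parentheses) of the log2 signal minus that gene's mean over the 6 dose arrays (x), in grey for control, blue for 1 μg and red for 10 μg. The medians of rods, cones and bipolar cells stay near 0 on all arrays, the Dlk1-Dio3 precursors separate 10 μg from the rest, and the lists of lens, skeletal muscle and connective tissue spread most.

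Ribosomal protein genes leaned slightly higher, by unadjusted p and in part by 1 array. Of 66 cytosolic ribosomal proteins 46 were above 0 and 8 had an unadjusted p below 0.05 (12.1%, against 2.98% of all genes), all higher, with a median of 0.09. Rplp0, of the ribosomal stalk, was at 7.22, 7.72 and 7.70 at 1 μg and at 7.95, 7.99 and 7.97 at 10 μg, a difference of 0.42 (standard error 0.133, adjusted p = 0.379 from limma). The doses did not overlap, and 1 μg replicate 1 was the low array, here and in the list as a whole (-0.13, against 0.02 and 0.01 for replicates 2 and 3). Without that array 2 of the 66 were higher and 2 lower at an unadjusted p below 0.05, and the median was 0.04. Higher ones numbered 5 without control replicate 1, 4 without control replicate 3 or 10 μg replicate 3 and 3, with 1 lower, without 10 μg replicate 1. There were 2 lower without 1 μg replicate 2 or 10 μg replicate 2 and 1 without 1 μg replicate 3. Of 87 nuclear genes of the respiratory chain, 6 (6.9%) were higher and 2 (2.3%) lower at that level, against 2.98% and 5.22% of all genes, among them the complex I subunits Ndufb9 (0.32) and Ndufa7 (0.27). The count of higher ones was 10 without control replicate 1 and 3 without 1 μg replicate 1, and the median of 0.04 was 0.0052 without 1 μg replicate 1 and 0.02 without 10 μg replicate 3.

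Small nucleolar RNAs, which guide the modification of ribosomal RNA, lay near the share of all genes: of 78 measured, 3 (3.85%) were higher and 6 (7.69%) lower at an unadjusted p below 0.05, against 2.98% and 5.22% of all genes. Higher ones numbered 1 without 1 μg replicate 1 or 10 μg replicate 3, 7 without 1 μg replicate 2 and 6 without 10 μg replicate 1. Snord37 had the lowest p, at 6.63, 6.47 and 6.34 against 5.38, 5.84 and 6.07, a difference of -0.72 (standard error 0.176, adjusted p = 0.343 from limma) with no overlap. Of their 20 host genes 4 were lower at an unadjusted p below 0.05 (20%, against 5.22% of all genes). This count was 1 without 1 μg replicate 1, 10 μg replicate 2 or 10 μg replicate 3, and 2 without 1 μg replicate 3. Among the 4 were Snhg14, the neuronal host transcript of an imprinted cluster, at -0.34 and Snhg11 at -0.36. A second probe set of Snhg11 gave -0.11, with overlapping pools. Of 19 clock genes, 14 were below 0, and the doses did not overlap for 5, all lower, against 9.72% of all genes in that direction. The list's median was -0.07, and -0.03 with each array centred on its median. The period gene Per3 was at -0.26 and Ciart, a repressor of the clock, at -0.23, both without overlap. They were the 2 with an unadjusted p below 0.05 (10.5%, against 5.22% of all genes lower at that level). This count was 0 without 1 μg replicate 1 or 10 μg replicate 2 and 1 without 1 μg replicate 3. Cat, which encodes catalase, was at 0.25 and Hamp, which encodes the iron hormone hepcidin, at 0.73. Hamp varied at 1 μg (3.76, 4.72 and 5.07) and overlapped with 10 μg (5.48, 5.30 and 4.97).

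On the higher side the genes with the lowest p were receptors of smell and pheromones and other dim transcripts. Of 177 type 1 vomeronasal receptors, which detect pheromones in the vomeronasal organ, 142 were above 0 and 25 (14.1%) were higher and 1 lower at an unadjusted p below 0.05, against 2.98% and 5.22% of all genes. Their median was 0.16. Of 112 type 2 receptors 21 were higher and 1 lower, with a median of 0.12. Of 1106 olfactory receptors 124 (11.2%) were higher and 15 lower, with a median of 0.11 that was 0.07 without 1 μg replicate 2. Without 1 μg replicate 2, 15, 12 and 81 of these were higher, and without 10 μg replicate 3, 38 type 1 receptors were. Of the olfactory receptors, 24 were lower without 1 μg replicate 2 and 9 without 1 μg replicate 1. With probe sets left out that lay under the median of all values on all arrays, 1, 0 and 4 were higher. Few receptors were kept in that setting: by their mean over all arrays, 9, 5 and 40 lay above that median. The median differences of those kept were 0.37, -0.04 and 0.03.

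Vmn1r173 stood at 2.54, 2.67 and 2.33 at 1 μg and at 3.77, 3.33 and 3.26 at 10 μg, above control (2.13, 2.30 and 2.19). The 3 groups did not overlap, and the doses differed by 0.94 (standard error 0.147, adjusted p = 0.214 from limma). Vmn2r37 was at 2.72, 2.71 and 3.13 against 3.99, 3.93 and 3.55, a difference of 0.97 (standard error 0.149, adjusted p = 0.214 from limma), with the control pools (2.95, 2.94 and 2.87) among those at 1 μg. Krtap6-3, a keratin-associated protein of hair, had the lowest p on this side, at 2.05, 2.11 and 1.92 against 2.63, 2.63 and 2.73 (difference 0.64, standard error 0.085, adjusted p = 0.182 from limma). Btbd35f1, brighter, was at 6.45, 6.15 and 7.04 against 7.71, 7.71 and 7.28, and at 4.97, 5.25 and 5.68 in control. It differed by 1.02 (standard error 0.261, adjusted p = 0.343 from limma), with no overlap between any of the groups.

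These receptors share a low signal, and dim genes leaned higher in general. Of 797 genes below a log2 signal of 3, 80.1% were above 0, 15.6% were higher and 0.502% lower at an unadjusted p below 0.05. Of 2826 genes from 8 to 9, 1.03% were higher and 9.45% lower. The class medians ran from 0.15 to -0.04. With each array centred on its median, those of these 2 classes were 0.19 and 0.01, so the sign of the brighter class turned. With cyclic loess they were 0.05 and 0.01, and the counts were 52 higher and 13 lower in the dimmest class and 110 higher and 116 lower in the brighter one. Of the dimmest genes, 69 in place of 124 were higher without 1 μg replicate 2. Of the brighter class, 161 in place of 267 were lower without 1 μg replicate 1, and without 10 μg replicate 3, 175. The part of signal level in the values of the receptors was not tested.

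Probe sets of multicopy families lay higher at 10 μg with wide spread between pools. All 56 distinct probe sets of Y-linked multicopy genes were above 0, with a median of 0.74, but 11 had an unadjusted p below 0.05 and only 1 separated the doses, against 3.74% and 4.71% of all probe sets in that direction. Relative to the mean of the 6 dose arrays, their median was -0.22, -1.18 and 0.29 at 1 μg, 0.62, 0.80 and -0.29 at 10 μg and -1.69, -1.76 and -1.44 in control. Thus 1 μg replicate 3 lay above 10 μg replicate 3. Without 1 μg replicate 2 their median was 0.32. Without 10 μg replicate 3, 39 had an unadjusted p below 0.05, and without 1 μg replicate 3 there were 36. Without 1 μg replicate 2, 10 μg replicate 1 or 10 μg replicate 2 there were 0, without 1 μg replicate 1 there were 2, and without a control array there were 4 or 5. Srsy was at 6.41, 5.88 and 7.07 against 7.47, 7.83 and 6.66. Of 7 single-copy Y-linked genes 0 had an unadjusted p below 0.05, with Kdm5d, Uty and Eif2s3y at -0.19, -0.11 and -0.21. Of 19 distinct probe sets of Csprs and the Sp100 family 6 were higher and 1 lower at an unadjusted p below 0.05, with a median of 0.20, and of 22 for the Speer family 21 were above 0, with a median of 0.34. The Speer median was 0.18 without 1 μg replicate 2 and 0.54 without 10 μg replicate 3, and that of Csprs and Sp100 was 0.11 without 10 μg replicate 1 and 0.32 without 10 μg replicate 3. Of these probe sets, 45 of the 56, 8 of the 19 and 7 of the 22 name several genes, and their signal cannot be assigned to a single one.

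Markers of tissues next to the retina differed between pools, some with dose. All 12 genes of connective tissue and sclera were above 0, with a median of 0.52. The doses did not overlap for 5, all higher, against 4.31% of all genes in that direction. Only 1, Bgn, had an unadjusted p below 0.05 (8.33%, against 2.98% of all genes higher at that level). Bgn, which encodes the matrix proteoglycan biglycan, was at 7.10, 7.07 and 7.06 at 1 μg and at 8.33, 7.47 and 8.02 at 10 μg, a difference of 0.87 (standard error 0.232, adjusted p = 0.343 from limma), with control at 7.75, 7.47 and 7.07. A second probe set of Bgn gave -0.13, with overlapping pools. The list's median on the arrays was -0.19, -0.31 and -0.23 at 1 μg and 0.88, -0.10 and 0.11 at 10 μg, so 10 μg replicate 1 was the high array. The median difference was 0.21 without it and 0.79 without 10 μg replicate 2. Its count was 4 without 10 μg replicate 2, and 2 without control replicate 2 or 3, 1 μg replicate 1 or 10 μg replicate 3. Of 44 measured collagen chains, 21 were above 0 and 23 below, with a median of -0.01 (0.03 with each array centred on its median). At an unadjusted p below 0.05, 0 chains were higher and 1 (2.27%) was lower, against 2.98% and 5.22% of all genes.

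Of 17 markers of the pigment epithelium, 15 were above 0, with a median of 0.30. At an unadjusted p below 0.05, 1 (5.88%) was higher (Krt8, 0.31), against 2.98% of all genes. This count was 9 without 10 μg replicate 1, 2 without control replicate 1 or 3, and 0 without 1 μg replicate 3. The median was 0.19 without 10 μg replicate 2. Rpe65, of the visual cycle, was at 7.76, 8.52 and 8.14 against 8.01, 9.01 and 8.83. Of 18 skeletal muscle genes 17 were above 0, with a median of 0.26 and 0 at that level. That median ran from 0.08 without 10 μg replicate 1 to 0.60 without 10 μg replicate 2, and was 0.46 without 1 μg replicate 1 and 0.14 without 1 μg replicate 2. The 23 lens genes had a median of -0.10 and an array median from -0.53 to 0.47. The median difference turned to 0.06 without 1 μg replicate 2 or 10 μg replicate 1, to 0.07 without 10 μg replicate 3 and to 0.11 without 1 μg replicate 3, and was -0.40 without 1 μg replicate 1 and -0.35 without 10 μg replicate 2. Cryaa, the main lens α-crystallin, was at 8.02, 11.64 and 11.53 at 1 μg and at 9.32, 11.79 and 9.13 at 10 μg. The pools of both doses overlapped widely for this gene. The part of these tissues in the differences of other genes was not tested.

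The 16004 probe sets that name no gene here held most of the large differences: past 2-fold and an unadjusted p of 0.05, 27 (0.169%) were higher and 131 (0.819%) lower. At an unadjusted p below 0.05, 735 (4.59%) were higher and 1627 (10.2%) lower, with a median of -0.04 that became 0.0038 with each array centred on its median. Without 1 μg replicate 1, 980 were lower and the median was -0.0037; it was -0.07 without 1 μg replicate 2 and -0.06 without 1 μg replicate 3. The share lower reached 20.8% at log2 signals from 7 to 8. What these probe sets read is not given in the annotation used here.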

How the data were processed

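RNA from each pool of retinas was measured on an Affymetrix Mouse Gene ST array. The study names the 1.0 ST array, while the probe set identifiers are annotated to a later Mouse Gene ST platform. The authors deposited log2 values, computed with RMA, which corrects background, equalises the distributions of the arrays and summarises probes, in Affymetrix Expression Console 1.1 per the submitters' processing notes. A genome build for the arrays is not given in the sources used here. All 9 columns were mapped to labelled samples, with 0 columns left over.

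Gene symbols came from the platform annotation, updated through RefSeq (GRCm38.p6): 23525 probe sets name 1 gene, 1816 several and 16004 none. MicroRNA sequences are those of RefSeq. The values were compared with limma 3.58.1 in R 4.3.3: group means of all 9 arrays, moderated two-sided test of 10 μg minus 1 μg, Benjamini-Hochberg adjustment over 41345 probe sets. Lists use the brightest probe set of each gene by its mean over all arrays and received no set test. Array values have no read depth, and the number of arrays limits the precision. The steps were tested on simulated data. Figures were drawn with matplotlib 3.10.9 in Python 3.11.15.

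Named genes are, among probe sets of 1 gene, up to 10 in each direction past the adjusted test, the 10 in each direction with the smallest p, the 5 with the largest difference past 2-fold and p below 0.05, the smallest p of each list (up to 3 genes), a set of complement, inflammation and retina genes, and the 3 probe sets of each multicopy family with the smallest p. Genes outside this rule, among them R3hdm1 and members of lists beyond the first 3, were picked with their values in view. The members and the gene lists were chosen with earlier results of these data known. The labels give 4 mice for each pool and the study names the pools biological replicates. The same results were recomputed with other tests (no moderation of the spread, unequal variances), other samples in the fit (the 6 dose arrays), other priors (with a trend by signal, robust), weighted arrays, a block for the replicate number, other scaling (medians aligned, cyclic loess), other probe sets (dim ones dropped, only named, only of 1 gene, duplicate rows once, all probe sets of a gene averaged) and without each array in turn.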

Additional observations from a re-analysis of the deposited data

How the results depend on the processing

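The count at an adjusted p below 0.05 stayed at 0 in limma under every alternative except 2 fits with 1 array left out, so its range there was 0 to 1. The probe set was an unnamed one at -1.49 (adjusted p = 0.0445) without control replicate 1, and another unnamed one at -1.48 (adjusted p = 0.0183) without 10 μg replicate 3. The unadjusted count of 4480 was 1897 with the unequal-variance test, 2630 over named probe sets and 2491 over probe sets of 1 gene. With 1 array left out it ran from 3319 (without 1 μg replicate 1) to 4632. The 2-fold count of 162 was 69 with the unequal-variance test, 84 with dim probe sets left out, and 4 over named probe sets and over those of 1 gene. It ran from 123 to 408 with 1 array left out, the highest without 10 μg replicate 3. Fewer probe sets are tested in the last 3 settings. The cause of the other changes was not tested.

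Of the probe sets at an unadjusted p below 0.05, 34.5% were higher. The share was 51.8% (2336 higher, 2175 lower) with each array centred on its median, 18.5% with dim probe sets left out, 49.1% without 1 μg replicate 1 and 44.9% without 10 μg replicate 3. Centring moved the median difference over all probe sets from -0.02 to 0.03.

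The replicate numbers were not taken to pair the pools. Same-numbered 1 μg and 10 μg pools had correlations of 0.095, -0.021 and -0.055 in their deviations from the group means. Pools of different numbers had correlations from -0.095 to 0.121. With 3 pools at each dose, these values cannot exclude a pairing. With the replicate number as a block, the counts were 0, 4271 and 162.

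Of the 198 named probe sets, 19 turned sign in some setting. With array weights, Cd59a was at 0.018, Gfap at 0.10 and Sncg at -0.0058. Mir124-2hg was at 0.018 with median centring and at 0.0079 with cyclic loess, and Gfap was at 0.0079 and 0.014. With 1 array left out, Cryga ran from -0.027 to 0.39, Sly from -0.17 to 1.36, Ifi203-ps from -0.049 to 0.46 and C5ar2 from -0.11 to 0.024. Cd59a ran from -0.13 to 0.040, Icam1 from -0.18 to 0.014, Adgre1 from -0.038 to 0.20 and Gfap from -0.24 to 0.24. Pou4f1 ran from -0.0045 to 0.065, Sncg from -0.057 to 0.15, Csf1r from -0.016 to 0.24 and Ly86 from -0.14 to 0.25. Cryaa ran from -1.50 to 0.31, Crygs from -1.36 to 0.58, Fcgr3 from -0.050 to 0.25 and Fcgr2b from -0.11 to 0.18. Gm7609 ran from -0.11 to 0.31 and Taf1d from -0.038 to 0.075.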
